A study of Homo sapiens with 6 samples.

Results

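CD44 and 8 other genes for integrins and leukocyte adhesion molecules were followed in RPMI-8402 cells, an established human line of T-cell acute lymphoblastic leukaemia. The 9 genes were CD44, the integrin subunit genes ITGA4, ITGB1, ITGAL, ITGB2 and ITGB7, the selectin ligand gene SELPLG, and ICAM3 and CD58, among 19695 named genes on the array. They were measured by 13 of 57176 probes, found through the transcript that the scanner files name for each probe. CD44 was chosen by its level on these same arrays, so its values are given as a description and carry no test. All 13 probes passed the filter on dim probes and were well above background on all 6 arrays.

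Leukocytes hold on to vessel walls, matrix and other cells through a small set of surface molecules. CD44 is the main receptor for the matrix sugar hyaluronan, and it is higher on early thymic precursors and on memory T cells than on resting naive ones. Integrins are pairs of an alpha and a beta subunit: ITGA4 with ITGB1 makes VLA-4, which binds VCAM1 and fibronectin, ITGA4 with ITGB7 makes the gut-homing receptor for MADCAM1, and ITGAL with ITGB2 makes LFA-1, the receptor for the ICAM proteins. SELPLG carries the sugars that selectins bind during rolling, ICAM3 is a ligand of LFA-1, and CD58 is the ligand of CD2 on T cells.

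The cells were transduced with lentivirus carrying a control shRNA, an shRNA against GATA3 (shGATA3) or an shRNA against TCF7, the gene of the transcription factor TCF1 (shTCF1). Per the labels, cells of all groups were sorted for EGFP at 48 h, so every group, control included, had been infected and sorted. Each group had 2 arrays, which the study describes as independent experiments, and no untransduced cells were analysed here. For GATA3 the study's methods name 1 hairpin, so effects of the hairpin apart from its target cannot be told apart from loss of the gene, and all groups are 1 cell line.

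Values below are normalized log2 intensities of single array probes, on which a step of 1 is a doubling of signal, and they are compared only within a probe. The share of probes well above background was 51% to 56.2% per array. The control arrays were brighter before normalization, with a mean 75th percentile of intensity of 278 against 176 with shGATA3 and 172 with shTCF1. They lay in row 2 of the slide and all shRNA arrays in row 1, so position and control against shRNA cannot be told apart. Of 13 T-lineage markers with a probe, 12 were well above background on all arrays, as were 3 of 6 each of the B-lineage, myeloid and non-haematopoietic markers. These included CD79A (10.78 to 12.35), CD14 (7.25 to 7.48) and KRT8 (9.54 to 9.91), whereas CSF1R, CD33, S100A8, EPCAM and CDH1 were above background on no array. The other KRT8 probe (3.01 to 3.73) was above background on no array either. TCF7 was lower with shTCF1 (12.58 and 12.68) than in control (13.96 and 13.91), and the change of -1.31 was called (SE 0.098, limma adjusted p = 0.00393). GATA3, measured by 1 probe, was not called lower with the hairpin against it, and its readings overlapped, with 9.46 and 9.55 against 9.54 and 9.56 in control (difference -0.05, SE 0.10, adjusted p = 0.795 in limma). Its GATA3 reading goes against the label of this group, and every direction given for it below refers to the arrays labelled shGATA3. The authors' own normalized matrix is used only as an alternative, because its control replicate 2 column had a rank correlation of only 0.688 with that array, and its columns for control replicate 1 and shGATA3 replicate 1 followed the other replicate's array better than their own (0.998 against 0.988).

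The DNA before the CD44 start site is shown because CD44 was the gene chosen by its level on these arrays and both hairpins target DNA-binding factors. Whether either factor acts on this DNA was not tested. RefSeq (GRCh38.p14) places these 250 bases at chr11:35138921-35139170 on the plus strand, and capitals mark the 15 CpG dinucleotides.
CD44 promoter: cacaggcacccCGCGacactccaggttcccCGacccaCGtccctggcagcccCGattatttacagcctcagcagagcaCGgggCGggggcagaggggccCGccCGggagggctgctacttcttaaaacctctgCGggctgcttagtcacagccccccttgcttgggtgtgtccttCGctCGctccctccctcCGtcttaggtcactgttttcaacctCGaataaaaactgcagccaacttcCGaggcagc
The window had 62.4% G and C, against a median of 58% over 35116 promoters of the same length. Neither AGATAA nor TGATAA, which share the GATA core, nor the TCF letters ATCAAAG occurred in it on either strand. The first pair was found in 14.6% of all promoters and the TCF letters in 2.26%. The letters were also in none of the windows listed for ITGA4, ITGB1, ITGB7, ICAM3 and CD58, so 0 of 6 genes with an entry held either. ITGAL, ITGB2 and SELPLG were not searched. AGATAG and TGATAG, which hold the same GATA core, were not searched. AGATAG does occur in a window of ITGB1 and, on the other strand, in that of ITGB7. The absence therefore concerns only the letters searched and these windows.

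CD44 was far lower with shGATA3 than in either other group. Its 1 probe read 11.09 and 10.87 in control, 7.97 and 7.88 with shGATA3 and 11.62 and 11.57 with shTCF1. The 3 groups did not overlap, and the gap between the lowest control array and the highest array labelled shGATA3 was 2.90. The group means were 10.98 ± 0.152, 7.93 ± 0.0656 and 11.59 ± 0.0366 (SD, n = 2 each). CD44 therefore lay 8.29-fold below control and 12.7-fold below shTCF1 on the arrays labelled shGATA3, which are log2 differences of -3.05 and -3.66. With shTCF1 it lay 1.53-fold above control, a log2 difference of 0.61. In the scanner intensities before any scaling between arrays, CD44 had 2772 and 2616 in control, 212.5 and 205.5 with shGATA3 and 2794 and 2481 with shTCF1. On that unscaled measure the control and shTCF1 arrays overlapped, so the smaller difference depends on the scaling.

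Among the 31131 tested probes, only 7 were lower than CD44 in the contrast of shGATA3 with control, and only 4 in that of shGATA3 with shTCF1. In shTCF1 against control 14.1% of the probes had a larger difference in either direction. The median absolute difference over all tested probes was 0.20, 0.25 and 0.19 in shGATA3 against control, shTCF1 against control and shGATA3 against shTCF1. These ranks describe a gene that was selected on the same arrays. CD44 RNA is spliced into many forms, and with 1 probe the array gives no view of single isoforms. In sorted bulk cells, fewer CD44-positive cells and less CD44 RNA per cell cannot be told apart, and surface protein was not measured here.

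**Figure D1:**
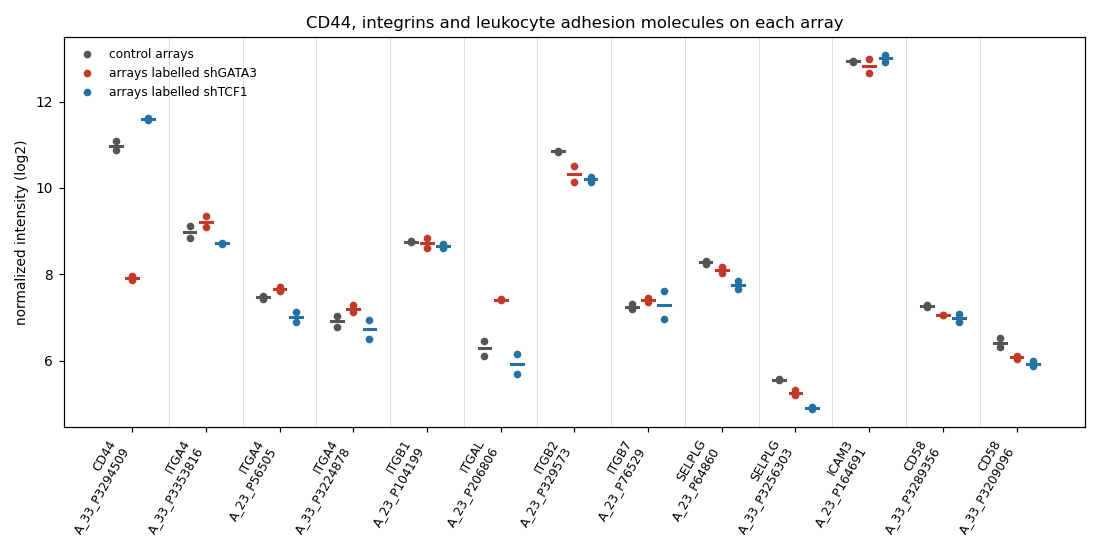
Normalized log2 intensity (vertical axis) of the 13 probes of the 9 genes (horizontal axis) on each of 6 arrays, with control in grey, arrays labelled shGATA3 in red and arrays labelled shTCF1 in blue. Points are arrays and short lines are group means of 2 arrays. CD44 drops from 10.98 in control to 7.93 with shGATA3, ITGAL rises from 6.28 to 7.42, and the other probes stay within about 1 log2 unit.

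Among the 5 integrin subunits, the largest difference was that of the LFA-1 alpha subunit. ITGAL read 6.12 and 6.45 in control, 7.40 and 7.43 with shGATA3 and 5.69 and 6.15 with shTCF1. Both shGATA3 arrays lay above all others, while control and shTCF1 overlapped. ITGAL was 2.19-fold higher with shGATA3 than in control, a log2 difference of 1.13 (SE 0.19, 95% interval 0.67 to 1.59, adjusted p = 0.0272 in limma). Against shTCF1 the difference was 1.5 (SE 0.19, 95% interval 1.04 to 1.96, 2.82-fold, adjusted p = 0.0111 in limma). The scanner intensities had the same order, with 83.3 and 115.3 in control, 141.5 and 149.9 with shGATA3 and 42.5 and 55.0 with shTCF1. Omitting any 1 of the 4 arrays behind it ended the call against control (highest adjusted p 0.124), and omitting either shGATA3 array ended the call against shTCF1 (highest 0.0716). ITGAL with shTCF1 differed from control by -0.37 (95% interval -0.82 to 0.09, adjusted p = 0.219 in limma).

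One myeloid marker had the same order of groups as ITGAL. S100A9, a calcium-binding protein of myeloid cells, read 6.0 and 5.98 in control, 6.81 and 7.25 with shGATA3 and 4.66 and 5.01 with shTCF1. Of the 6 myeloid markers with a probe, 3 were tested, and S100A9 was the 1 called higher with shGATA3 than control, with 0 lower in limma (1 and 0 at an unadjusted p under 0.05). Over all tested probes 2.88% were called higher and 3.96% lower, and 3 markers are too few to set a share against these. CD14 (7.25 to 7.48 over all arrays) and MPO (5.01 to 5.80) had no such order of groups, and CSF1R, CD33 and S100A8 were not above background on any array. The summed linear level of the 6 markers was 294 to 329 in control, 355 to 412 with shGATA3 and 285 to 296 with shTCF1. Of 13 T-lineage markers tested, 2 were called higher and 0 lower with shGATA3 than control in limma (6 and 3 at an unadjusted p under 0.05), with a median difference of 0.43. Their summed level was 81624 to 83939 in control, 116960 to 133768 with shGATA3 and 84805 to 101999 with shTCF1. The brightest marker, CD3D, weighs most in this linear sum. It read 15.11 and 15.15 in control, 15.75 and 16.15 with shGATA3 and 15.57 and 14.74 with shTCF1. CD5, CD247 and the brighter CD8A probe lay below control on both arrays labelled shGATA3, so the sum does not describe the markers one by one. The part of the myeloid or T-lineage markers in the ITGAL result was not tested.

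ITGB2, the beta subunit of LFA-1, went the other way from ITGAL on the arrays labelled shGATA3. It read 10.84 and 10.85 on the control arrays, 10.5 and 10.14 with shGATA3 and 10.14 and 10.26 with shTCF1, so both shRNA groups lay below control and overlapped each other. Against control it was called lower with shTCF1, with a difference of -0.65 (SE 0.14, 95% interval -1.0 to -0.29, 1.57-fold, adjusted p = 0.0346 in limma). Omitting any 1 of the 4 arrays behind it ended this call (highest adjusted p 0.136), as did the replicate number as a block. With shGATA3 the difference of -0.52 (SE 0.14, 95% interval -0.87 to -0.17) was not called (adjusted p = 0.088 in limma). The arrays labelled shGATA3 and shTCF1 differed in ITGB2 by 0.13 (95% interval -0.23 to 0.48, adjusted p = 0.649 in limma).

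ITGA4, the alpha subunit of VLA-4, was measured by 3 probes, and each had its highest group mean with shGATA3 and its lowest with shTCF1. The brightest, A_33_P3353816, read 8.85 and 9.13 in control, 9.34 and 9.1 with shGATA3 and 8.70 and 8.73 with shTCF1. A_23_P56505 read 7.49 and 7.44, then 7.71 and 7.62, then 7.13 and 6.90 in the same order, with no overlap between any groups. A_33_P3224878 read 6.79 and 7.04, then 7.29 and 7.12, then 6.94 and 6.51, with control and shTCF1 overlapping. Between shGATA3 and shTCF1 the 3 probes differed by 0.50 (SE 0.14, adjusted p = 0.102 in limma), 0.65 (SE 0.12, adjusted p = 0.0342) and 0.48 (SE 0.18, adjusted p = 0.176). Only A_23_P56505 was called, 1.57-fold higher, and its call did not survive the omission of any 1 of the 6 arrays (highest adjusted p 0.115). Against control no ITGA4 probe was called. The nearest was A_23_P56505 with shTCF1, at -0.45 (SE 0.12, adjusted p = 0.0521 in limma).

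The partners of ITGA4 showed no call in any contrast. ITGB1, the shared beta subunit of the VLA integrins, read 8.78 and 8.74 in control, 8.84 and 8.60 with shGATA3 and 8.61 and 8.71 with shTCF1. Its difference from control was -0.05 (95% interval -0.34 to 0.25) with shGATA3 and -0.10 (95% interval -0.39 to 0.19) with shTCF1. ITGB7, the beta subunit of the gut-homing integrin, read 7.31 and 7.20, then 7.46 and 7.36, then 6.96 and 7.62 in the same order of groups. Its arrays labelled shTCF1 spanned all the others, and its intervals against control reached from -0.38 to 0.68 with shGATA3 and from -0.50 to 0.56 with shTCF1.

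SELPLG, the protein backbone of the P-selectin ligand PSGL-1, was lower with shTCF1 on both of its probes. A_23_P64860 read 8.32 and 8.23 in control, 8.04 and 8.17 with shGATA3 and 7.66 and 7.85 with shTCF1. A_33_P3256303, which the files give to another transcript of the gene, read 5.55 and 5.57, then 5.2 and 5.32, then 4.93 and 4.88. On both probes all shRNA arrays lay below control, and those labelled shTCF1 were the lowest. The differences from control with shTCF1 were -0.52 (SE 0.12, 1.43-fold, adjusted p = 0.0342 in limma) and -0.66 (SE 0.10, 1.58-fold, adjusted p = 0.0141). Omitting any 1 of the 4 arrays behind them ended both calls (highest adjusted p 0.166 and 0.0799), and the first was also lost after 75th percentile scaling, quantile normalization and with a replicate block. With shGATA3 the probes differed from control by -0.17 and -0.30, with no call (adjusted p = 0.392 and 0.133 in limma).

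ICAM3, a counter-receptor of LFA-1, read 12.95 and 12.91 in control, 12.65 and 12.99 with shGATA3 and 12.92 and 13.08 with shTCF1. All 3 groups overlapped, and the differences from control were -0.11 (95% interval -0.46 to 0.24) and 0.07 (95% interval -0.28 to 0.42). CD58, the partner of CD2, was lower on all 4 shRNA arrays than on both control arrays with each of its probes. A_33_P3289356 read 7.24 and 7.28 in control, 7.06 and 7.06 with shGATA3 and 7.09 and 6.90 with shTCF1, and neither difference from control was called (adjusted p = 0.296 and 0.143 in limma). A_33_P3209096 read 6.52 and 6.31, then 6.03 and 6.12, then 5.99 and 5.88. It was called lower with shTCF1 (difference -0.48, SE 0.12, limma adjusted p = 0.0451), and lost that call on omission of any 1 of the 6 arrays. Of 9 other ways of processing that kept all arrays of the compared groups, only 2 kept the call. The share of all probes with control apart from both shRNA groups was not counted, here or for ITGB2 and SELPLG. The dimmer CD58 probe does not count in the number of genes called below, where each gene stands by its brightest probe. The same holds for the ITGA4 probe A_23_P56505, which was called between shGATA3 and shTCF1.

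**Figure D2:**
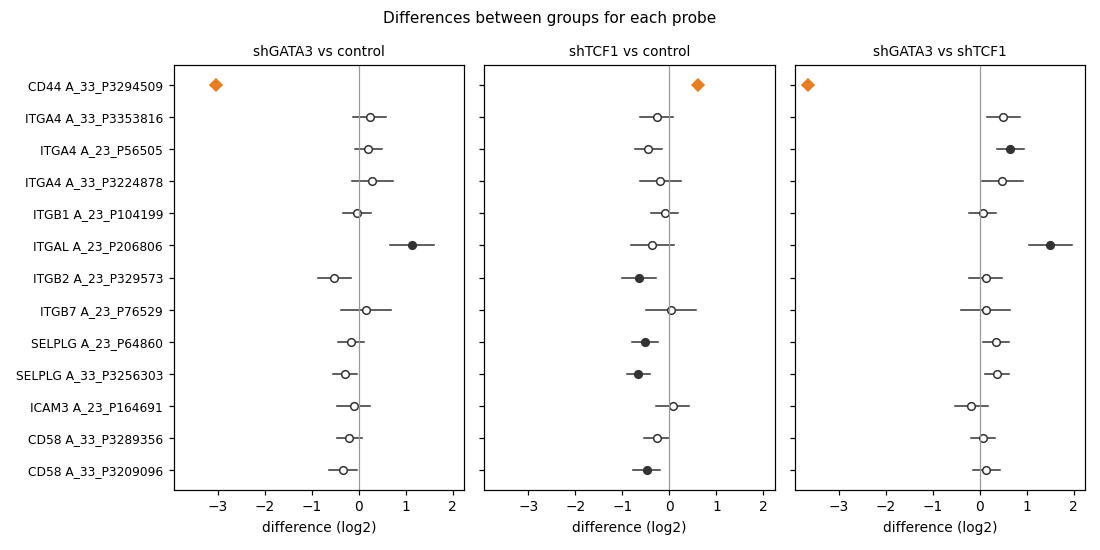
Log2 difference (horizontal axis) of each probe (vertical axis) in shGATA3 against control, shTCF1 against control and shGATA3 against shTCF1, with 95% intervals of the limma fit over 6 arrays. Filled points have an adjusted p below 0.05, and CD44 is a diamond without interval because it was selected on these arrays. CD44 is at -3.05, 0.61 and -3.66, and ITGAL at 1.13, -0.37 and 1.5.

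Counted by gene, few of the 8 genes other than CD44 were called. In shGATA3 against control ITGAL was higher and 0 genes were lower in limma (1 and 1 at an unadjusted p under 0.05), where 2.88% of all tested probes were called higher and 3.96% lower. In shTCF1 against control ITGB2 and SELPLG were lower and 0 were higher (3 and 0 at an unadjusted p under 0.05), where 7.21% of the probes were called higher and 9.73% lower. In shGATA3 against shTCF1 ITGAL was higher and 0 were lower (3 and 0 at an unadjusted p under 0.05), where 3.58% were called higher and 2.60% lower. The median difference over the 8 genes was -0.08, -0.27 and 0.12 in these contrasts, beside -0.01, -0.02 and 0 over all tested probes. With 8 genes, 1 or 2 calls are too few to set a share against these percentages. The 2 contrasts with control share their control arrays.

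The genes whose levels followed CD44 most closely over the 6 arrays were sought among 127 genes well above background on all arrays and spanning at least 2 log2 units. FAM30A, a long noncoding RNA gene, came first (Pearson r = 0.998), reading 9.88 and 9.89 in control, 6.87 and 6.81 with shGATA3 and 10.60 and 10.73 with shTCF1. CBFA2T3, a transcriptional corepressor of blood progenitors (r = 0.997), read 8.84 and 8.85, then 7.06 and 7.01, then 9.17 and 9.35. LYL1, a basic helix-loop-helix factor of blood stem cells and a T-cell leukaemia oncogene (r = 0.989), read 9.86 and 9.86, then 8.04 and 8.13, then 10.54 and 10.65. In all of these the arrays labelled shGATA3 were lowest and those labelled shTCF1 highest, as for CD44. HSPG2, the basement membrane proteoglycan perlecan, and GPAT2, a mitochondrial acyltransferase, had r = 0.990 and r = 0.976.

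The pattern most opposite to CD44 was that of NKD2, an inhibitor of Wnt signalling (r = -0.995), with 9.95 and 10.11 in control, 11.99 and 11.92 with shGATA3 and 9.33 and 9.66 with shTCF1. Next came the integrin gene ITGB5 (r = -0.994) and GADD45G, a stress-response gene (r = -0.992), which read 6.83 and 7.12, then 11.27 and 11.36, then 5.08 and 5.56. These correlations describe 6 arrays that fall into 3 groups of 2, and they were computed on the arrays that chose CD44.

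**Figure D3:**
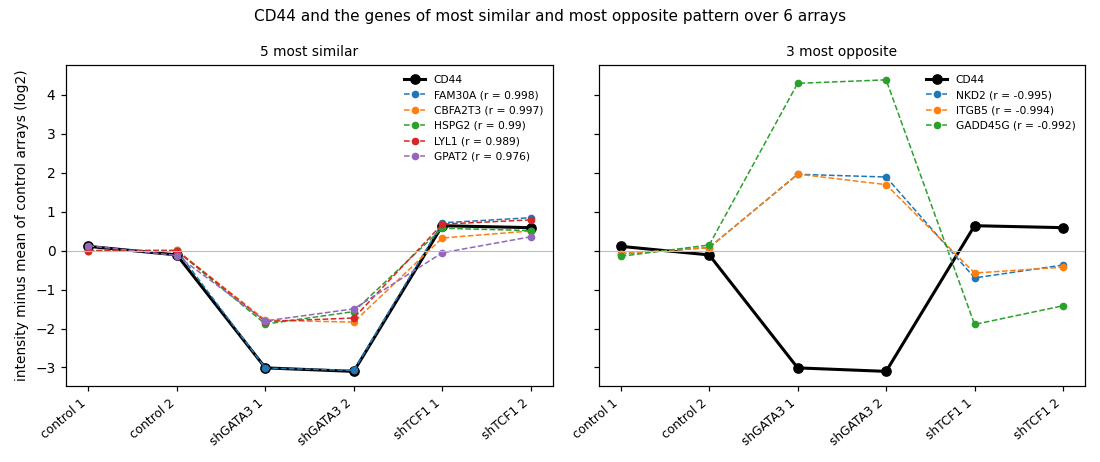
Log2 intensity minus the mean of the control arrays (vertical axis) on each of 6 arrays (horizontal axis) for CD44 in black and, dashed, the 5 genes of most similar pattern on the left and the 3 of most opposite pattern on the right. Lines join arrays only to guide the eye. FAM30A overlies CD44, and GADD45G spans 6.28 log2 units, beside 3.74 for CD44.

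Other genes of cell adhesion were taken from 5 lists with 131 genes, of which 108 were tested. Over all of them, 7 were called higher and 8 lower in shGATA3 against control, 11 and 14 in shTCF1 against control, and 9 and 4 in shGATA3 against shTCF1. These were 13.9%, 23.1% and 12% of the genes, beside 6.84%, 16.9% and 6.18% of all tested probes called in either direction. Their median differences were -0.05, -0.04 and -0.08. These shares have unlike bases, here and for the single lists below, as each listed gene counts by its brightest probe. All tested probes include dimmer ones and further probes of a gene. In a separate fit of the 27328 probes above background on all arrays, 9.79%, 22% and 7.64% of probes were called. That fit held 100 of the listed genes and called 18 of them in shGATA3 against control. Its shares are therefore not a base for the percentages of the main fit. Both counts against control in the main fit include MMP14, tested only through the control arrays, as described below. In the authors' matrix the differences from control of RASGRP1, PODXL and CD2 described below, and of ITGB2 described above, changed sign in both shRNA groups. That of GCNT1 with shGATA3 and those of ITGAV and SRSF1 with shTCF1 changed sign too. On omission of single arrays, the calls named below held in each of the 6 fits for ITGB5, ITGA6, GCNT1 and NCAM1, for RASGRP1, CD2 and CD9 with shTCF1 and for CD2 between the shRNA groups. Every other call followed for the brightest probe of a gene was lost in at least 1 of these fits. The CD99 call with shTCF1 was not followed in them.

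Of 15 other integrin subunits tested, ITGB5 and ITGA6 stood out. ITGB5, which pairs with ITGAV as a vitronectin receptor, read 6.11 and 6.26 in control, 8.15 and 7.88 with shGATA3 and 5.61 and 5.76 with shTCF1. It was 3.56-fold higher with shGATA3 than in control (log2 difference 1.83, SE 0.14, adjusted p = 0.00352 in limma) and 5.01-fold higher than with shTCF1 (2.33, SE 0.14, adjusted p = 0.00118). ITGA6, the alpha subunit of a laminin receptor, read 10.95 and 11.11, then 9.73 and 9.64, then 10.86 and 10.91. It was 2.54-fold lower with shGATA3 than in control (-1.34, SE 0.11, adjusted p = 0.00439 in limma), and its other probe gave -1.18 (adjusted p = 0.00895). With shTCF1 only ITGAV was called, at -0.52 (SE 0.10, adjusted p = 0.0247 in limma). The list had 1 higher and 1 lower with shGATA3, and 0 higher and 1 lower with shTCF1 (1 and 2 at an unadjusted p under 0.05). It had 1 higher and 1 lower in shGATA3 against shTCF1, so that 13.3%, 6.67% and 13.3% of the list were called. Of all probes 6.84%, 16.9% and 6.18% were called, and 15 genes are too few to tell such shares apart. The list medians were -0.14, 0.06 and -0.12.

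Of 28 genes of integrin activation and linkage to the cytoskeleton, 4 were higher and 2 lower with shGATA3 and 4 were higher and 4 lower with shTCF1. In shGATA3 against shTCF1, 4 were higher and 0 lower in limma (7 and 2 at an unadjusted p under 0.05), and the medians were 0.04, -0.07 and 0.04. In either direction 21.4%, 28.6% and 14.3% of the list were called, against 6.84%, 16.9% and 6.18% of all probes. RASGRP1, an exchange factor that feeds T-cell receptor signals to Ras, read 10.29 and 10.22 in control, 9.39 and 9.37 with shGATA3 and 8.50 and 8.74 with shTCF1. It was lower than control in both, with differences of -0.87 (SE 0.12, adjusted p = 0.0165 in limma) and -1.63 (SE 0.12, adjusted p = 0.00385). FYB1, an adaptor of integrin activation, was lower in both too, with differences of -1.06 and -0.87 (SE 0.22, adjusted p = 0.0481 in limma for each). APBB1IP, known as RIAM and a link from Rap1 to talin, was higher with shGATA3 than control by 0.52 (adjusted p = 0.0425 in limma) and than shTCF1 by 0.76 (adjusted p = 0.0143). Its other probe gave -0.12 and 0.58 with no call. The kinase PTK2B was higher with shGATA3 by 0.58 (adjusted p = 0.0402 in limma), and the adaptor PXN (paxillin) higher than with shTCF1 by 0.87 (adjusted p = 0.0104), where its other probe gave -0.68 (adjusted p = 0.288). With shTCF1, LIMS1 and CALR were higher than control by 0.55 and 0.46 (adjusted p = 0.0251 and 0.0431 in limma). LIMS1 also lay above control with shGATA3, by 0.46 with no call (adjusted p = 0.06 in limma). Between the shRNA groups LIMS1 differed by only -0.09. Omission of any 1 of the 6 arrays ended the APBB1IP and PTK2B calls against control and the CALR call. Both FYB1 calls were lost on omission of any 1 of the 4 arrays behind them (highest adjusted p 0.172 and 0.152) and after 75th percentile scaling or quantile normalization.

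Of 20 genes of CD44 partners, hyaluronan synthesis and CD44 processing, 0 were higher and 1 lower with shGATA3 than in control in limma (1 and 3 at an unadjusted p under 0.05). In shGATA3 against shTCF1, 0 were called in either direction (1 higher and 1 lower at an unadjusted p under 0.05). These were 5% and 0% of the list, beside 6.84% and 6.18% of all probes, and 20 genes are too few to tell such shares apart. With shTCF1 against control, 1 was higher and 3 were lower, MMP14 among the latter. That is 20% of the list beside 16.9% of all probes. The medians in shGATA3 against control, shTCF1 against control and shGATA3 against shTCF1 were 0, 0.03 and -0.05. HAS3, a hyaluronan synthase, was higher with shTCF1 than in control, 6.47 and 6.28 against 5.63 and 5.72 (difference 0.70, SE 0.13, adjusted p = 0.0208 in limma), whereas its other probe gave -0.17 (adjusted p = 0.636). SRSF1, a splicing factor, was lower with shTCF1 (difference -0.81, SE 0.12, adjusted p = 0.0136 in limma), as was KHDRBS1, the splicing regulator Sam68 (difference -0.46, SE 0.11, adjusted p = 0.0405). The KHDRBS1 call was lost on omission of any 1 of the 6 arrays (highest adjusted p 0.182). The 1 gene called lower with shGATA3, and 1 of the 3 with shTCF1, was MMP14, a membrane protease that cleaves CD44. It was well above background only on the control arrays and was tested only for that reason, so it supports neither count and no fold is given.

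Of 18 genes of selectins and selectin ligand synthesis, 2 were lower and 0 higher with shGATA3 (6 and 1 at an unadjusted p under 0.05 in limma) and 2 were higher and 1 lower with shTCF1. In shGATA3 against shTCF1, 2 were lower and 0 higher (7 and 0 at an unadjusted p under 0.05), so that 11.1%, 16.7% and 11.1% of the list were called. Of all probes 6.84%, 16.9% and 6.18% were called, and 18 genes are too few to tell such shares apart. The list medians were -0.30, 0.02 and -0.27. GCNT1, the enzyme that builds the core glycans that PSGL-1 needs for selectin binding, read 9.71 and 9.74 in control, 8.74 and 8.64 with shGATA3 and 10.03 and 10.08 with shTCF1. It was 2.05-fold lower with shGATA3 than in control (-1.03, SE 0.099, adjusted p = 0.00672 in limma) and 2.57-fold lower than with shTCF1 (-1.36, adjusted p = 0.00219). PODXL, a sialomucin, was lower in both shRNA groups, with differences of -0.88 and -0.62 (SE 0.094, adjusted p = 0.00905 and 0.0136 in limma). With shTCF1, TPST1, which sulfates PSGL-1, was higher than control by 0.87 (SE 0.13, adjusted p = 0.013 in limma), and the sialomucin SPN (CD43) by 0.69 (SE 0.14, adjusted p = 0.0264). SPN was lower with shGATA3 than with shTCF1 (difference -0.84, adjusted p = 0.0252 in limma), a call kept in only 1 of the 6 fits that omit an array (highest adjusted p 0.108) and lost with a replicate block.

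Of 27 adhesion molecules of the immunoglobulin family and other kinds, 2 were higher and 2 lower with shGATA3, 4 and 5 with shTCF1, and 4 and 1 in shGATA3 against shTCF1, with medians of -0.07, 0.04 and -0.06. These calls were 14.8%, 33.3% and 18.5% of the list, against 6.84%, 16.9% and 6.18% of all probes. CD2, the receptor for CD58, read 11.89 and 11.90 in control, 11.41 and 11.45 with shGATA3 and 9.69 and 9.73 with shTCF1. It was 4.55-fold lower with shTCF1 than in control (-2.19, SE 0.094, adjusted p = 0.00199 in limma) and 1.38-fold lower with shGATA3 (-0.47, SE 0.094, adjusted p = 0.0439), the latter call being lost on omission of any 1 of the 6 arrays. NCAM1, the CD56 antigen of natural killer cells, read 7.63 and 7.47, then 9.03 and 8.95, then 6.67 and 6.84. It was 2.70-fold higher with shGATA3 than in control (1.43, SE 0.12, adjusted p = 0.00443 in limma) and 4.68-fold higher than with shTCF1 (2.23, adjusted p = 0.000978). CD99 was higher with shGATA3 by 0.60 (adjusted p = 0.0406 in limma), and JAM3, a junctional adhesion molecule, lower (difference -0.99, SE 0.18, adjusted p = 0.0362). Both of these calls ended on omission of any 1 of the 4 arrays behind them (highest adjusted p 0.164 for each) and with a replicate block. With shTCF1, BSG was higher by 0.78 and the endothelial and leukocyte molecule PECAM1 by 0.56 (adjusted p = 0.0108 and 0.0177 in limma), and the tetraspanin CD9 was lower (difference -1.07, SE 0.12, adjusted p = 0.00811). CD99 was also called higher than control with shTCF1, by 0.53 (adjusted p = 0.0345 in limma). Between the shRNA groups CD99 differed by only 0.08 (adjusted p = 0.747 in limma). All 3 PECAM1 probes were called lower with shGATA3 than with shTCF1, with differences of -0.77, -0.73 and -0.90.

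**Figure D4:**
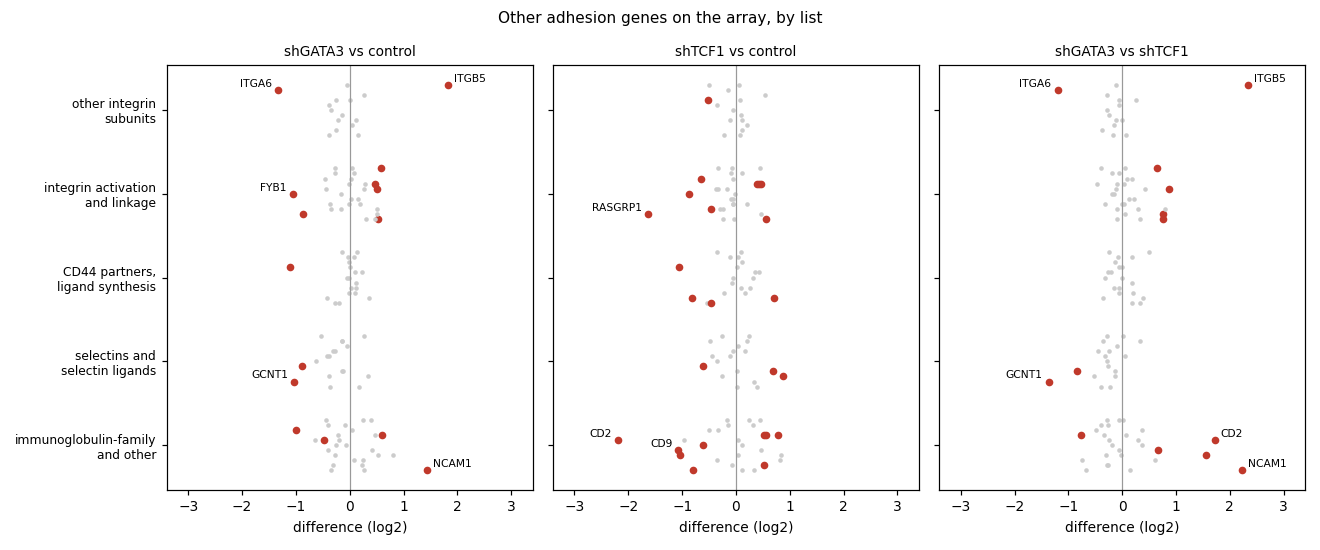
Log2 difference (horizontal axis) of the 108 tested genes of 5 adhesion lists (rows) in shGATA3 against control, shTCF1 against control and shGATA3 against shTCF1. Red points have an adjusted p below 0.05 in limma, and genes with a difference above 1 that the text describes are labelled. The extremes are ITGA6 at -1.34 and ITGB5 at 1.83 in the first panel, CD2 at -2.19 in the second and ITGB5 at 2.33 in the last.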

How the data were processed

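RNA of 6 samples (control, shGATA3 and shTCF1, 2 arrays each, grouped by the sample titles) was hybridised in 1 colour (Cy3, from 100 ng of total RNA) to a custom Agilent array. Per the file headers, the intensity values were made with Agilent Feature Extraction 10.7.1.1 (the submitters' processing notes name 9.1), with the background subtracted and detrended and no scaling between arrays. The authors also deposited log2 values, which their methods describe as VSN-normalized with scale and centring unstated. These served as an alternative only. Precision is limited by the number of arrays.

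Control spots and outlier spots were left out, spots of a probe were averaged, and intensities were normalized in R 4.3.3 with a VSN model (trimming quantile 0.9, 7 iterations, 5 strata) written anew. The 31131 probes well above background on both arrays of a group entered 1 two-sided limma fit (version 3.58.1, lmFit then eBayes) of all 6 arrays with group as its term, both methods being those the study states. P values were Benjamini-Hochberg adjusted over all tested probes, with calls at an adjusted p below 0.05. At 2 arrays a group, exact permutation gives no p below 0.333, so calls rest on the spread pooled over probes. The code was tested on simulated data. Probes were named through a RefSeq table (25678 matched), and a gene stands by its brightest tested probe. The headers name hg19, so RefSeq coordinates are given only for the GRCh38.p14 promoter window, which holds the 250 bases before the start site.

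All arrays were on 1 slide and scanned at 1 time, so no slide block could be fitted. Per-sample columns left unused numbered 0. The members, adhesion lists and markers were chosen with earlier results of these data known. Named were all members, the 2 largest called rises and falls per list and contrast on probes above background in both groups, the genes most like and unlike CD44, GATA3 and TCF7. S100A9 and MMP14 were named after their values were seen. One gene is not reported here. Other scalings, dim-probe filters, an intensity trend, a replicate block, fits on 2 groups and leaving out each array were tried. Over all probes, higher calls as a share of all calls moved with the scaling, from 42.1% to 53.6% in shGATA3 against control and from 42.6% to 54.8% in shTCF1 against control after 75th percentile scaling.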

Additional observations from a re-analysis of the deposited data

Results flagged for a closer look

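For the genes below, the differences of the arrays labelled shGATA3 and shTCF1 from the shared control arrays were unlike each other, tested by the direct contrast in limma. The value is shGATA3 minus shTCF1 in log2. CD44 (-3.66) is left out because it was chosen by this contrast. For ITGAL the value was 1.5 and for ITGA4 (probe A_23_P56505) it was 0.65. ITGAL was above control with shGATA3 and below it with shTCF1, and only the first of these was called. For other adhesion genes it was 2.33 for ITGB5, 2.23 for NCAM1, 1.72 for CD2, 0.87 for PXN and 0.76 for APBB1IP. It was -1.36 for GCNT1, -1.20 for ITGA6, -0.84 for SPN and -0.77 for PECAM1. These other adhesion genes are only the 2 largest called rises and falls of each list in this contrast. SIRPG (1.56, adjusted p = 0.00255 in limma), RASGRP1 (0.76, 0.0221), CD9 (0.66, 0.0374) and PTK2B (0.65, 0.0297) were called in it too. Leaving out 1 array kept the calls for ITGB5, NCAM1, CD2, GCNT1 and ITGA6 in all 6 fits and ended that for ITGA4 in all 6. The call for SPN was kept in 1 of the 6, that for APBB1IP in 3, those for ITGAL and PECAM1 in 4 and that for PXN in 5.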

How the results depend on the processing

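CD44 kept its direction in all 3 contrasts under every alternative run. Its difference was -2.67 (shGATA3 against control) and -3.28 (against shTCF1) with normexp and quantile normalization. In the deposited matrix it was -3.27, 0.29 (shTCF1 against control) and -3.56. Leaving out 1 array gave -3.16 to -2.94, 0.51 to 0.72 and -3.71 to -3.62. Of the 8 other member genes, 1 was called with shGATA3 against control, which became 2 with normexp and quantile normalization or an intensity trend and 0 in the deposited matrix or with no filter on dim probes. In shTCF1 against control 2 were called, which became 1 after 75th percentile scaling or quantile normalization and 0 in the deposited matrix, with no filter or with a replicate block. In shGATA3 against shTCF1 1 was called, which became 2 with normexp or a trend and 0 in the deposited matrix or with no filter. Leaving out 1 array gave 0 to 1, 0 to 2 and 0 to 1. Of the 108 other adhesion genes, 15, 25 and 13 were called, with MMP14 counted in both contrasts with control. With shGATA3 the count was 30 with normexp, 28 with a trend, 8 with a replicate block and 5 with no filter, with shTCF1 it was 10 with no filter, and between the shRNA groups 20 with normexp and 22 with a trend. In the deposited matrix it was 0 in each, where limma called 0 of 31131 probes (1814, 2653 and 1642 at an unadjusted p under 0.05). Leaving out 1 array gave 5 to 10, 5 to 20 and 7 to 10.

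In the deposited matrix, whose control replicate 2 column follows no array closely, differences from control turned direction. With shGATA3 they were 0.28 for ITGB1, 1.36 for ITGB2, -0.58 for ITGB7, 0.56 for CD58 (A_33_P3289356), 1.63 for RASGRP1, 1.06 for GCNT1, 1.17 for PODXL and 2.69 for CD2. With shTCF1 they were 0.20 for ITGB1, 0.27 for ITGAL, 1.30 for ITGB2, -0.33 for ITGB7, -0.05 for ICAM3, 0.45 for CD58, 0.05 for ITGAV, 0.74 for RASGRP1, 1.38 for SRSF1, 1.29 for PODXL and 0.85 for CD2. ITGB7 was -0.25 between the shRNA groups. ITGB1 with shGATA3 turned to 0.0050 after 75th percentile scaling and to 0.03 with normexp, and ITGB7 between the shRNA groups to -0.09 with normexp. Leaving out 1 array turned differences that were not called: with shGATA3 ITGB1 ranged from -0.17 to 0.07 and ICAM3 from -0.28 to 0.06, with shTCF1 ITGA4 (A_33_P3224878) from -0.41 to 0.02, ITGB7 from -0.30 to 0.36 and ICAM3 from -0.01 to 0.15, and between the shRNA groups ITGB1 from -0.07 to 0.18, ITGB2 from -0.06 to 0.31, ITGB7 from -0.21 to 0.45 and CD58 (A_33_P3289356) from -0.03 to 0.16. The cause of these changes was not tested.

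Replicate numbers did not pair the samples (correlations of deviations -0.04, -0.01 and 0.05). With the replicate block limma called 1328, 3853 and 1285 probes, against 2130, 5274 and 1925 without it. With no filter 560, 2272 and 901 probes were called. With normexp the counts were 4280, 7728 and 3281 and with a trend 3910, 7343 and 3273. No slide block was run.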
